A study of Homo sapiens with 12 samples.

Results

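L1PA10 and L1PA12 are 2 subfamilies of the LINE-1 (L1) retrotransposon, and they are the L1 subfamilies for which the deposited counts hold a model of the 5′ end and a model of the 3′ end. The 4 models, L1PA10_5end, L1PA10_3end, L1PA12_5end and L1PA12_3end, were taken by name from the 45 repeat elements of the count tables of both days. Each model has a plus and a minus count, which gives 8 of the 90 features. All 8 passed the filter on low counts, with at least 58 counts in every library, and 70 features passed in all.

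Stranded total RNA was sequenced from THP-1, an established monocytic cell line that was derived from a human leukaemia. The 4 groups of 3 libraries each were cells with SETDB1 sgRNA 9 and cells with a non-targeting sgRNA, both collected at day 4 and at day 7, and every group was transduced and put under 1 µg/ml puromycin 48 h later. The design text names SETDB1 sgRNAs 6 and 9, every SETDB1 title names sgRNA 9, and the titles were used here. Whether the replicates were grown as separate cultures is not in the labels, and the p-values cover the spread between these libraries, which may be technical. The tables list repeat elements only, so SETDB1 transcripts and cell type markers were not analysed here.

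A full-length L1 carries an internal promoter in its 5′ untranslated region, 2 open reading frames and a 3′ untranslated region that ends in a poly(A) tract. Most genomic copies are truncated at their 5′ end, because reverse transcription starts at the 3′ end and often stops early, and many of these fragments lie in introns and are transcribed as part of other genes. RNA from the 5′ end of a subfamily is therefore closer to transcription from the element's own promoter than RNA from its 3′ end, although the 5′ region can also be transcribed as part of a gene. L1PA10 and L1PA12 belong to the primate-specific L1PA lineage and are old enough to be no longer mobile. SETDB1 deposits H3K9 trimethylation, a silencing mark, and is recruited to retrotransposons through the corepressor TRIM28 and KRAB zinc finger proteins.

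Counts over all 45 elements summed to between 27388 and 42445 in the non-targeting and between 38524 and 58916 in the SETDB1 libraries. The depth of the whole libraries is not known from these files, and the part of the larger totals in the results was not tested. The 4 models held 12.8% to 14.2% of the table in the non-targeting and 10.9% to 12.6% in the SETDB1 libraries. Levels are given as CPM, table counts per 1000000 with TMM scaling (edgeR's correction for composition), which follow an element only against the rest of the table. Copies of related subfamilies share sequence, so reads could be split between L1 models by the counting, and the values are uncertain to that extent. Model lengths are not used here, so the size of a 3′ to 5′ ratio says nothing about relative abundance, and only its change between groups was compared. Fewer cells that express an element and less RNA per cell cannot be told apart in these bulk samples.

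The balance between the ends shifted towards the 5′ end in cells with SETDB1 sgRNA 9, in both subfamilies. Within each library the 3′ end count was divided by the 5′ end count of the same strand, a ratio that scaling between libraries does not touch. Over both days the ratio fell to 0.606 of its non-targeting value for L1PA10 on the minus strand and to 0.520 for L1PA12 on the minus strand. On the plus strand it fell to 0.783 for L1PA10 and to 0.854 for L1PA12. No other L1 subfamily here has models of both ends, and ratios of other pairs of features were not computed. Among all 70 single features at day 7, the SETDB1 libraries all lay above the controls in 31.4% and below them in 24.3%. Whether the shift is particular to these subfamilies was not tested.

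For L1PA12 on the minus strand, the ratio at day 7 was 22.1, 20.2 and 14.2 in the non-targeting libraries and 7.62, 7.21 and 9.62 in the SETDB1 libraries (replicates 1, 2 and 3). The arms did not overlap at day 7, and the highest SETDB1 library lay below the lowest control. At day 4 it was 14.2, 9.53 and 16.5 against 10.2, 7.63 and 6.69, and the arms overlapped through non-targeting replicate 2 and SETDB1 replicate 1. The log2 change was -1.19 ± 0.23 at day 7, -0.70 ± 0.29 at day 4 and -0.94 ± 0.19 over both days (SE from the replicate variances of log2 ratios with a pseudocount of 0.5; two-sided exact permutation within days, p = 0.01, adjusted p = 0.0133 over the 4 pairs of ends). Put as a share, the 5′ end held 5.20% ± 1.2 of the L1PA12 minus strand end counts in the non-targeting cells at day 7 and 11.1% ± 1.5 with SETDB1 sgRNA 9 (SD, n = 3).

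For L1PA10 on the minus strand, the day 7 ratio was 2.996, 3.10 and 3.32 in the non-targeting libraries and 1.61, 1.51 and 1.85 in the SETDB1 libraries. These arms were also fully separated. At day 4 the ratio was 3.21, 2.33 and 3.03 against 2.38, 1.90 and 1.69, again with overlap between the same pair of libraries, non-targeting replicate 2 and SETDB1 replicate 1. The log2 change was -0.92 ± 0.10 at day 7, -0.52 ± 0.20 at day 4 and -0.72 ± 0.11 over both days (SE; exact permutation p = 0.01, adjusted p = 0.0133). The 5′ end share of the L1PA10 minus strand end counts was 24.2% ± 1.0 in the non-targeting cells at day 7 and 37.8% ± 2.4 with SETDB1 sgRNA 9 (SD, n = 3).

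**Figure D1:**
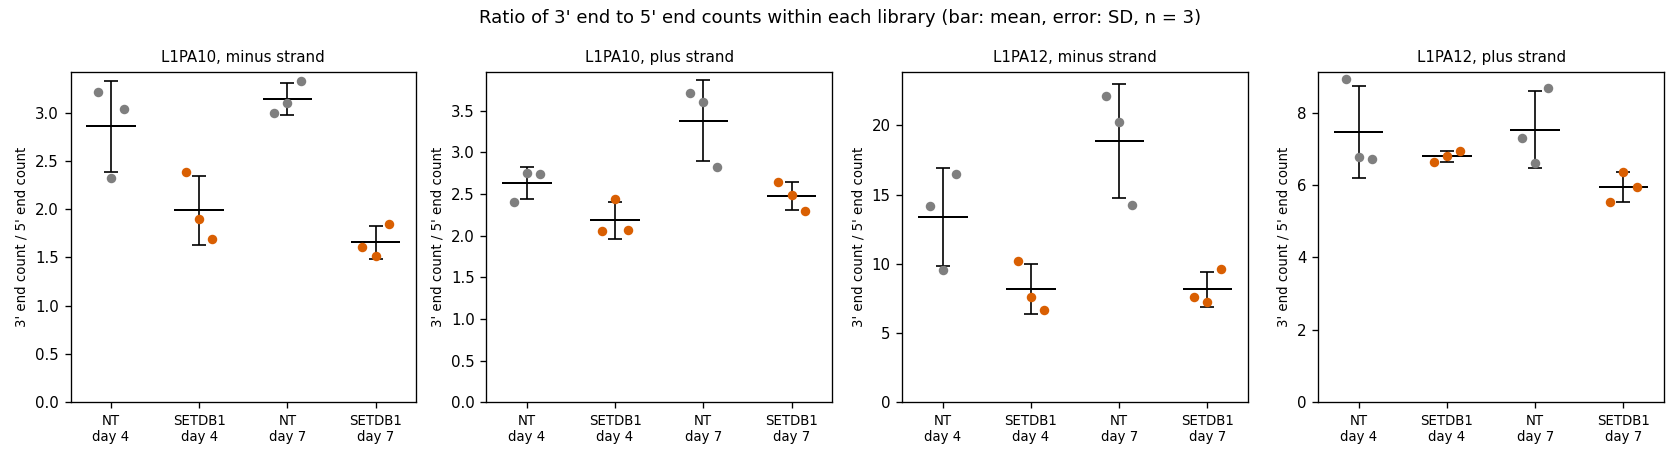
Ratio of 3′ end to 5′ end counts in each of the 12 libraries, by subfamily and strand; the y axis is the count ratio from 0, points are libraries (grey non-targeting, orange SETDB1 sgRNA 9), bars are means and error bars SD (n = 3). At day 7 the SETDB1 libraries lie below the controls in all 4 panels, with L1PA12 minus strand at 7.21 to 9.62 against 14.2 to 22.1. How often ratios of other pairs of features separate in this way was not counted.

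The ratio fell on the plus strand too. For L1PA10 the day 7 ratio was 3.72, 3.60 and 2.82 in the non-targeting and 2.64, 2.49 and 2.30 in the SETDB1 libraries, without overlap. At day 4 it was 2.41, 2.75 and 2.74 against 2.05, 2.44 and 2.07. Over both days its log2 change was -0.35 ± 0.09 (SE; exact permutation p = 0.01, adjusted p = 0.0133).

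For L1PA12 on the plus strand, the day 7 ratio was 7.298, 6.61 and 8.69 against 5.52, 6.37 and 5.94, and the day 4 ratio 8.94, 6.76 and 6.71 against 6.63, 6.79 and 6.95. The arms were separate at day 7 by a narrow gap between 6.37 and 6.61, and overlapped at day 4. The change over both days was -0.23 ± 0.09 (log2, SE; exact permutation p = 0.045, adjusted p = 0.045). This call was lost on leaving out any of 8 libraries (each of the 6 SETDB1 libraries, and non-targeting library 1 of day 4 or 3 of day 7), with log2 changes of -0.16 to -0.27 over all single omissions. The other 3 pairs passed without any single library.

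Taken a day at a time, 3 libraries against 3 cannot give an exact p below 0.1, and all 4 pairs reached that value at day 7, while at day 4 p lay between 0.2 and 0.7. In edgeR with the ends of each library as paired columns, added after values were seen, all 4 pairs passed at day 7 (adjusted p = 4.23e-05 to 0.047). That fit held the 4 pairs only and shared its estimate of spread between them, so its p-values rest on few rows. At day 4 L1PA10 minus strand (-0.53, adjusted p = 0.0241), L1PA10 plus strand (-0.28, 0.0241) and L1PA12 minus strand (-0.695, 0.0187) passed there, and L1PA12 plus strand did not (-0.14, 0.348). With limma L1PA10 plus strand was lost at day 4 (-0.27, adjusted p = 0.115). Each day 4 call was lost without some libraries of that day: SETDB1 library 3 and non-targeting library 3 for all 3, SETDB1 library 2 for L1PA10 minus strand, SETDB1 library 1 and non-targeting library 2 for L1PA10 plus strand, and non-targeting library 1 for both minus strands. At day 7 L1PA12 plus strand was lost on leaving out any of 9 libraries, all but SETDB1 library 2 and non-targeting library 2 of day 7 and non-targeting library 1 of day 4 (-0.39 to -0.22), and the other 3 were kept in all 12 omissions.

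The change at day 7 was larger than at day 4 in all 4 pairs, by a log2 difference of -0.50 ± 0.32 for L1PA12 and -0.40 ± 0.29 for L1PA10 on the minus strand, and of -0.16 ± 0.21 and -0.19 ± 0.16 on the plus strand (SE). None of these passed in that edgeR fit (adjusted p = 0.331 to 0.433, unadjusted p = 0.131 to 0.433, none under 0.05). The difference between strands, tested on the per-library difference of the log2 ratios, was 0.72 ± 0.23 for L1PA12 (exact permutation p = 0.015, adjusted p = 0.06 over 4 differences) and 0.37 ± 0.17 for L1PA10 (p = 0.05, adjusted p = 0.1), and neither passed. The subfamilies differed by -0.22 ± 0.14 on the minus strand (exact permutation adjusted p = 0.193) and by 0.13 ± 0.17 on the plus strand (adjusted p = 0.445). Single libraries bear on these differences: without SETDB1 library 1 of day 4 both differences between strands passed (0.46 for L1PA10), and without non-targeting library 3 of day 7 that of L1PA12 (0.87) and the minus strand difference between the subfamilies (-0.34) did.

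The days were compared in the same way. Over both arms, L1PA10 on the plus strand had a higher ratio at day 7 than at day 4 by 0.27 ± 0.09 on the log2 scale (SE; exact permutation p = 0.02, adjusted p = 0.08), which did not pass. It passed without SETDB1 library 2 of day 4 or non-targeting library 3 of day 7 (0.23 to 0.33 over all omissions). The other 3 pairs had log2 differences between -0.09 and 0.26 and exact permutation p of 0.235 to 0.665. In the non-targeting cells alone, L1PA10 plus strand ratios at day 7 (2.82 to 3.72) lay above those at day 4 (2.41 to 2.75) in every library, and edgeR gave a log2 difference of 0.38 ± 0.12 (SE, adjusted p = 0.0205). This call was lost with limma (0.35, adjusted p = 0.0577) and without non-targeting library 1 of day 4 or non-targeting library 1 or 2 of day 7 (0.30 to 0.49).

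Each end was then followed on its own, relative to the rest of the table. On the minus strand the 5′ end was called higher with SETDB1 sgRNA 9 in both subfamilies at day 4 and in L1PA10 at day 7. L1PA10_5end minus strand stood at 10947, 13332 and 10240 CPM in the non-targeting and 11708, 16876 and 17084 CPM in the SETDB1 libraries at day 4. SETDB1 replicate 1 lay within the control range, and replicates 2 and 3 above it. At day 7 it stood at 12558, 12012 and 10961 against 15519, 15799 and 14809 CPM, with no overlap. Its log2 fold change was 0.40 ± 0.14 at day 4 and 0.37 ± 0.14 at day 7 (SE; edgeR, adjusted p = 0.033 and 0.0216 over 70 features).

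L1PA12_5end minus strand is the same region of the other subfamily and has fewer counts, 72 to 268 per library. It stood at 2860, 3660 and 2425 CPM in the non-targeting and 3269, 4873 and 4886 CPM in the SETDB1 libraries at day 4. Once more SETDB1 replicate 1 fell within the control range. At day 7 the values were 2424, 2503 and 3370 against 3676, 3816 and 3343 CPM, and the arms overlapped by one library on each side. The log2 fold change of 0.54 ± 0.17 at day 4 passed (edgeR adjusted p = 0.0187), and that of 0.40 ± 0.18 at day 7 did not (adjusted p = 0.0537).

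On the plus strand the 5′ ends gave no call in the main edgeR fit. L1PA10_5end plus strand had a log2 fold change of 0.30 ± 0.14 at day 4 and 0.31 ± 0.15 at day 7 (SE; edgeR adjusted p = 0.158 and 0.072), with 4786 to 7744 CPM in the SETDB1 and 4280 to 5950 CPM in the non-targeting libraries over both days. It passed at day 4 without SETDB1 library 2 of that day (edgeR adjusted p = 0.0487; 0.20 to 0.41 over all omissions). At day 7 it passed without SETDB1 library 1 of that day (edgeR adjusted p = 0.0203; 0.16 to 0.42). The day 4 result was kept in 8 of 9 alternatives and the day 7 result in 7 of 9. L1PA12_5end plus strand had values of -0.07 ± 0.16 and -0.09 ± 0.17 (adjusted p = 0.872 and 0.663), at 2059 to 2738 against 2057 to 2931 CPM.

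In all, 2 of the 8 features were higher at day 4, both of them 5′ ends, against 15.7% of the 70 features called higher at that day. None of the 8 was lower at day 4 in edgeR, against 8.57% of all features, and none had an unadjusted p under 0.05 in that direction, while DESeq2 also gave 0. The arms of all 8 overlapped at day 4, against 11.4% of features whose SETDB1 libraries all lay above and 14.3% whose SETDB1 libraries all lay below the controls. Both day 4 calls were lost with table totals in place of TMM (0.28 for L1PA10_5end, 0.42 for L1PA12_5end), with the members left out of totals and factors (0.26 and 0.40) and with the libraries of that day alone (0.37 and 0.51), and that of L1PA10_5end also without a filter (0.36). The day 4 calls depend on single libraries too: both were lost on leaving out library 2 or 3 of the SETDB1 group or library 1 or 3 of the non-targeting group of that day, and that of L1PA10_5end also without SETDB1 library 2, non-targeting library 2 or non-targeting library 3 of day 7, which only add to the common estimate of spread and scale. Over all omissions the day 4 changes ranged from 0.29 to 0.56 for L1PA10_5end and from 0.38 to 0.71 for L1PA12_5end. The day 7 call of L1PA10_5end was lost with DESeq2 (0.29), RLE factors (0.29), no filter (0.20), members left out (0.13) and the libraries of that day alone (0.15), and without SETDB1 library 2 or non-targeting library 3 of day 7 or non-targeting library 2 of day 4 (0.26 to 0.42 over all omissions). L1PA12_5end minus strand passed at day 7 on leaving out any of 5 libraries, which were library 3 of either arm of day 7, SETDB1 library 1 of day 4 and non-targeting libraries 1 and 3 of day 4 (0.28 to 0.56).

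Of the 4 features of the 3′ ends, 3 were lower with SETDB1 sgRNA 9 at day 7 relative to the table, although in unscaled counts all but L1PA12_3end minus strand turned to values above 0. L1PA12_3end minus strand, the feature with the most counts of the 8, stood at 53687, 50581 and 47922 CPM in the non-targeting and 28028, 27531 and 32159 CPM in the SETDB1 libraries, with no overlap. That is a log2 fold change of -0.80 ± 0.12 (SE; edgeR adjusted p = 2.19e-06), or 0.576-fold. L1PA10_3end minus strand stood at 37622, 37185 and 36429 against 25018, 23849 and 27359 CPM. Its arms were as clearly separated, with a log2 fold change of -0.55 ± 0.12 (edgeR adjusted p = 0.000254).

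On the plus strand L1PA12_3end went from 17689, 17312 and 17878 to 11719, 13104 and 14865 CPM, again without overlap. Its log2 fold change was -0.41 ± 0.13 (SE; edgeR adjusted p = 0.00885), and the call was lost without SETDB1 library 1 of day 7, the lowest of the 3 (-0.32, adjusted p = 0.0511). L1PA10_3end plus strand had a log2 fold change of -0.15 ± 0.12 at day 7 (adjusted p = 0.339), and its arms overlapped.

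At day 7, 3 of the 8 features were thus lower, all of them 3′ ends, against 25.7% of the 70 features, and 1 was higher, a 5′ end, against 30.0%. The same 4 features had arms that did not overlap, against 24.3% of all features below and 31.4% above the controls. Read against these shares, the members' counts are near the background, so the counts alone do not set these L1 models apart from the table. At day 4 the 4 features of the 3′ ends had log2 fold changes between -0.20 and 0.02 with overlapping arms (edgeR adjusted p = 0.311 to 0.954).

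Whether the 3′ ends were lower in absolute amount cannot be read from these data, since the falls rest on scaling to the table. In unscaled counts the median log2 change of all features was 0.65 at day 4 and 0.76 at day 7. Without scaling, L1PA12_3end minus strand had 2082, 1718 and 1351 counts in the non-targeting and 1136, 1645 and 1722 in the SETDB1 libraries at day 7, which overlap, and a log2 change of -0.19 that did not pass. L1PA10_3end minus strand and L1PA12_3end plus strand turned to 0.06 and 0.21 without scaling, and neither passed. The unscaled 5′ ends on the minus strand were 1.02 (L1PA10) and 1.16 (L1PA12) at day 4 and 0.97 and 1.02 at day 7, above the median of all features in each case.

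**Figure D2:**
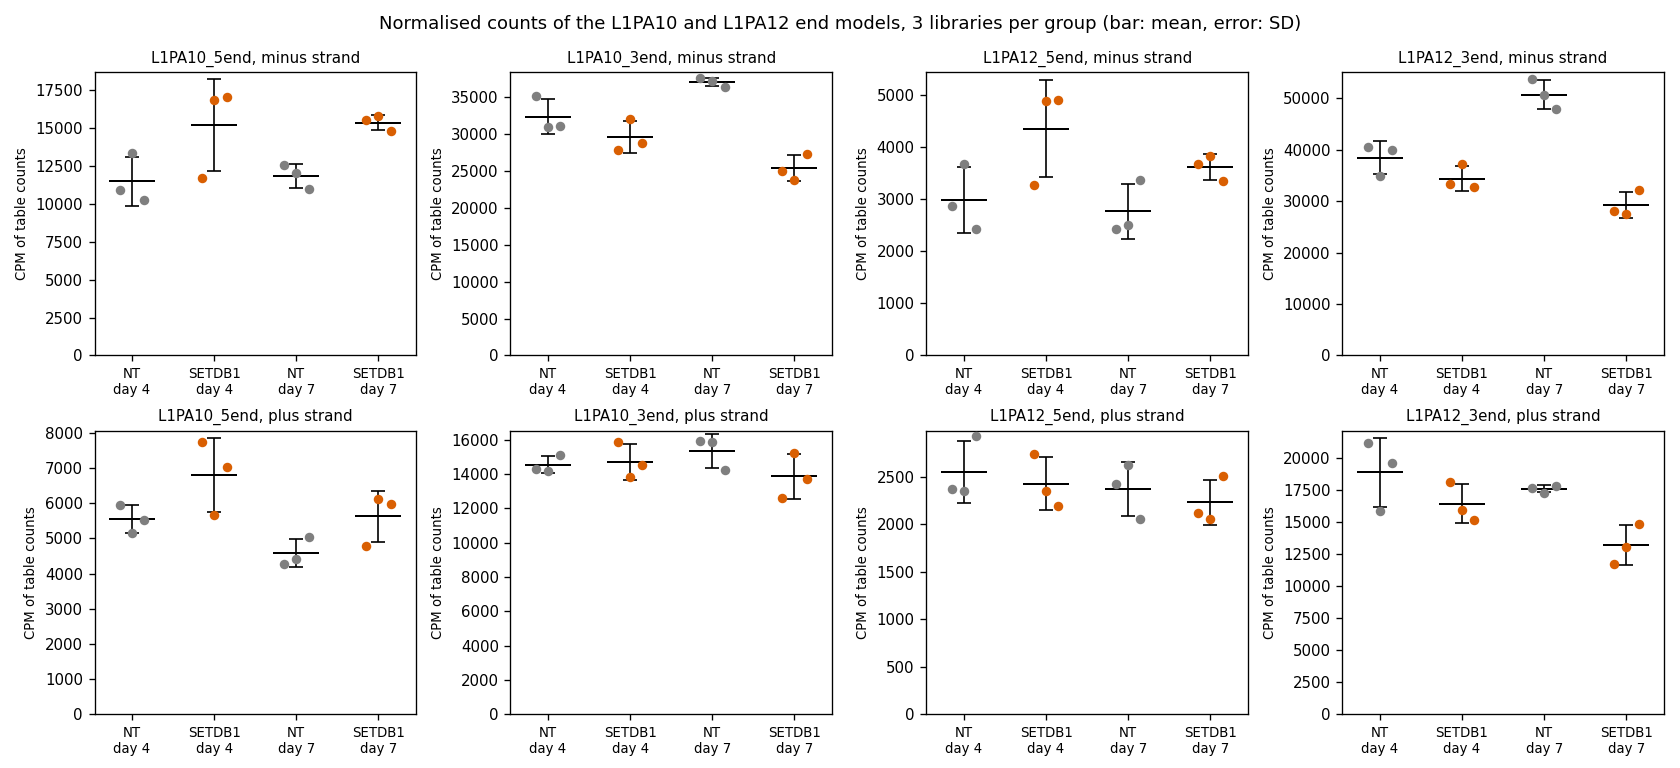
Normalised counts of the 8 features in each of the 12 libraries; the y axis is CPM of table counts from 0, points are libraries (grey non-targeting, orange SETDB1 sgRNA 9), bars are means and error bars SD (n = 3). The upper row is the minus strand, where at day 7 both 3′ ends lie below the controls (L1PA12_3end at 27531 to 32159 against 47922 to 53687 CPM) and L1PA10_5end lies above them; in unscaled counts the 3′ ends overlap.

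Between the days, L1PA12_3end minus strand was the 1 of the 8 features whose response to SETDB1 sgRNA 9 differed in edgeR with TMM scaling and the filter. Its log2 fold change was lower at day 7 than at day 4 by -0.63 ± 0.17 (SE; interaction adjusted p = 0.0125), while 2.86% of the 70 features were called lower and 2.86% higher in this comparison. At day 4 it stood at 40612, 34867 and 39916 CPM in the non-targeting and 33284, 37198 and 32691 CPM in the SETDB1 libraries, which overlap. In the non-targeting cells it then rose by 0.40 ± 0.12 to day 7 (adjusted p = 0.0422; 2.86% of features were called higher and 2.86% lower), and in the SETDB1 cells its change of -0.23 ± 0.12 did not pass (adjusted p = 0.183).

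The interaction call of L1PA12_3end was lost on leaving out non-targeting library 3 of day 4 or 1 or 2 of day 7, or SETDB1 library 2 of day 7 (-0.57 to -0.71 over all omissions). The rise in the non-targeting cells was lost on leaving out any library other than SETDB1 libraries 1 and 2 of day 4 and 3 of day 7 (0.29 to 0.41). L1PA10_3end minus strand had an interaction of -0.41 ± 0.17 that did not pass (edgeR adjusted p = 0.121). It passed with DESeq2 (-0.52, adjusted p = 0.000709) and in edgeR with RLE factors (-0.52), without a filter (-0.55) and with L1P1_orf2 left out (-0.46). The 5′ ends had interactions between -0.14 and 0.01, with adjusted p of 0.799 to 0.982.

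None of the 8 features was called changed between the days in the SETDB1 cells in edgeR, with 1 at an unadjusted p under 0.05. Of all features, 11.4% were called higher and 1.43% lower. The day 7 libraries all lay below those of day 4 for L1PA10_3end minus (log2 -0.22), L1PA12_3end minus (-0.23) and L1PA12_3end plus strand (-0.31). The other members overlapped, and the share of all features separated in this way was not counted. DESeq2 called 3 of the 8 features lower and 0 higher. On leaving out non-targeting library 2 of day 4, whose group is not part of this comparison, edgeR called 5 lower. The median log2 change of all features was -0.20 in that omission, against -0.07 in the main fit. The number of all tested features called lower was 1 in the main fit, up to 8 over the alternatives and up to 17 over single omissions.

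The strands of each model were compared within the library too. The minus strand held most counts of both 3′ ends and of L1PA10_5end in all 12 libraries, from 60.2% to 76.4%, and 45.3% to 69.1% of those of L1PA12_5end. The minus strand share of L1PA10_3end at day 7 was 70.3%, 70.0% and 71.9% in the non-targeting and 66.4%, 61.0% and 66.6% in the SETDB1 libraries, and that of L1PA12_3end 75.2%, 74.5% and 72.8% against 70.5%, 67.8% and 68.4%. Neither 3′ end overlapped between the arms, and how many of the other elements were separated in this way was not counted.

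In log2 odds of the minus strand these falls were -0.40 ± 0.16 for L1PA10_3end and -0.38 ± 0.15 for L1PA12_3end (SE; edgeR over 39 elements, adjusted p = 0.0384 and 0.0474), while 25.6% of the elements were called lower, 7.69% higher, and the median element moved by -0.42. The fall of both 3′ ends was therefore no larger than that of the median element. Each call was lost with limma and without any of several single libraries. For L1PA10_3end these were libraries 1 and 3 of the non-targeting day 4 group, libraries 2 and 3 of the SETDB1 day 7 group and all 3 of the non-targeting day 7 group (-0.28 to -0.46), and for L1PA12_3end the same ones and SETDB1 library 3 of day 4 (-0.34 to -0.43).

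The log2 odds of the minus strand were above 0 for both 5′ ends at each day, while the median element moved by -0.25 at day 4 and -0.42 at day 7. This contrast with the median was not tested. The minus strand share of L1PA12_5end at day 7 was 48.9% to 62.1% in the non-targeting and 57.2% to 65.0% in the SETDB1 libraries. Its change in log2 odds was 0.60 ± 0.23 at day 4 and 0.50 ± 0.23 at day 7 (SE, edgeR adjusted p = 0.0574 and 0.0821). On leaving out SETDB1 library 1 of day 4 or SETDB1 library 3 of day 7 it passed at both days, without non-targeting library 2 of day 4 it passed at day 4 (0.37 to 0.88), and without non-targeting library 3 of day 7 it passed at day 7 (0.37 to 0.73). Over both days, 10.3% of elements were called higher and 28.2% lower, and the median change in log2 odds was -0.37. In this comparison, added after values were seen, the change was 0.55 ± 0.16 for L1PA12_5end (edgeR adjusted p = 0.00431) and -0.28 ± 0.11 for L1PA10_3end (adjusted p = 0.037). The first was lost with limma (adjusted p = 0.0818) and without non-targeting library 3 of day 4 (0.44). The second was lost with limma (adjusted p = 0.0814) and on leaving out any of 7 libraries, which were SETDB1 libraries 1 and 3 and non-targeting library 1 of day 4, SETDB1 library 2 of day 7 and every non-targeting library of day 7 (-0.33 to -0.22). L1PA10_5end (0.09) and L1PA12_3end (-0.17) did not pass over both days. Per day, L1PA10_5end had 0.10 ± 0.18 and 0.07 ± 0.18 (adjusted p = 0.768 and 0.759), and the 3′ ends at day 4 had -0.15 ± 0.16 and 0.04 ± 0.15 (adjusted p = 0.545 and 0.937), so edgeR called no model at day 4, with 1 of the 4 at an unadjusted p under 0.05 and none by limma, against 2.56% of elements called higher and 10.3% lower. The sources used here do not tell which of the strands is the element's sense strand.

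**Figure D3:**
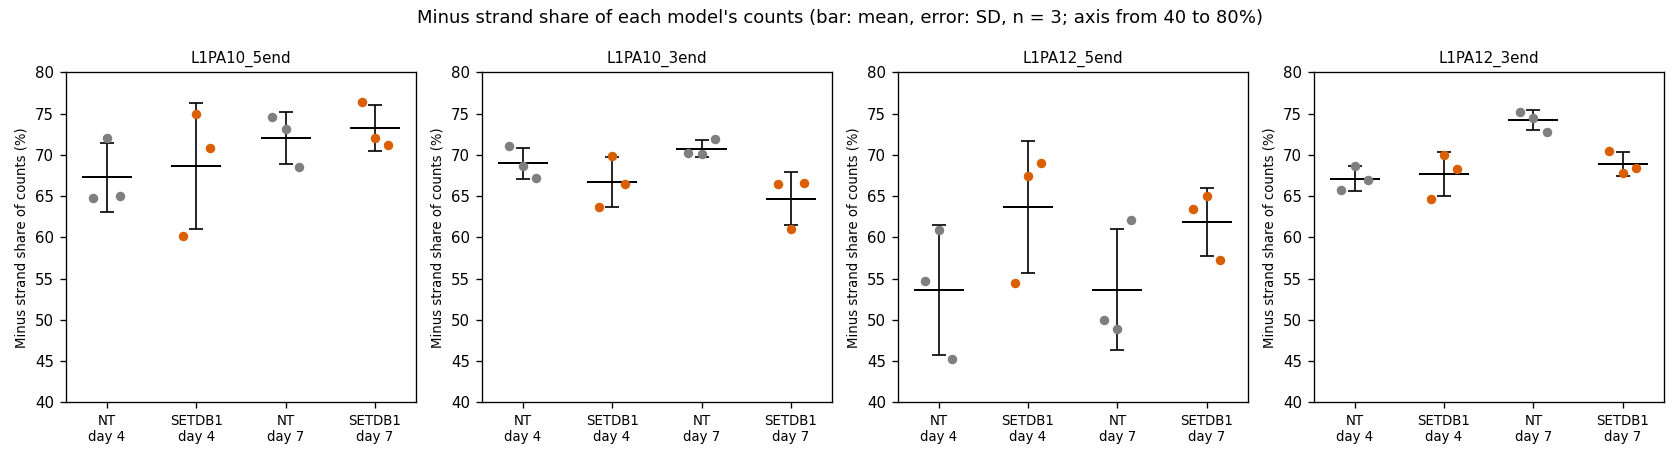
Minus strand share of the counts of each model in each of the 12 libraries, in percent; the y axis runs from 40 to 80%, points are libraries (grey non-targeting, orange SETDB1 sgRNA 9), bars are means and error bars SD (n = 3). At day 7 the SETDB1 libraries lie below the controls for both 3′ ends (L1PA12_3end at 67.8% to 70.5% against 72.8% to 75.2%) and overlap them for both 5′ ends. How many of the other elements were separated in this way was not counted.

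Other L1 models of the table, which each represent one end or ORF2 only, were set beside these. At day 4 the 4 features of the L1PA10 and L1PA12 5′ ends had a median log2 fold change of 0.35 and those of their 3′ ends of -0.15. The 19 tested features of other L1 5′ ends had a median of 0.11 (2 higher, 0 lower) and the 6 of other L1 3′ ends a median of -0.07 (0 higher, 0 lower), while all 70 had 0.04. At day 7 the medians were 0.34 and -0.48 for L1PA10 and L1PA12, 0.27 for other 5′ ends (4 higher, 1 lower), -0.30 for other 3′ ends (1 higher, 3 lower) and 0.16 for all 70.

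Other L1 features with the largest calls at day 7 were L1PBb_5end plus strand (1.27 ± 0.41) and L1P1_orf2 plus strand (0.93 ± 0.14) upwards, and L1PA5_3end minus strand (-0.61 ± 0.12) and L1M4b_5end minus strand (-0.56 ± 0.20) downwards (log2, SE). L1M4b is an ancient L1, and L1PA5 a younger subfamily of the L1PA lineage. At day 4 they were L1PBa_5end plus strand (0.89 ± 0.14) and L1P1_5end minus strand (0.58 ± 0.16). L1MA8_3end minus strand was a 3′ end that rose at day 7 (0.46 ± 0.13), so not every 3′ end was lower; it is named after its value was seen.

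**Figure D4:**
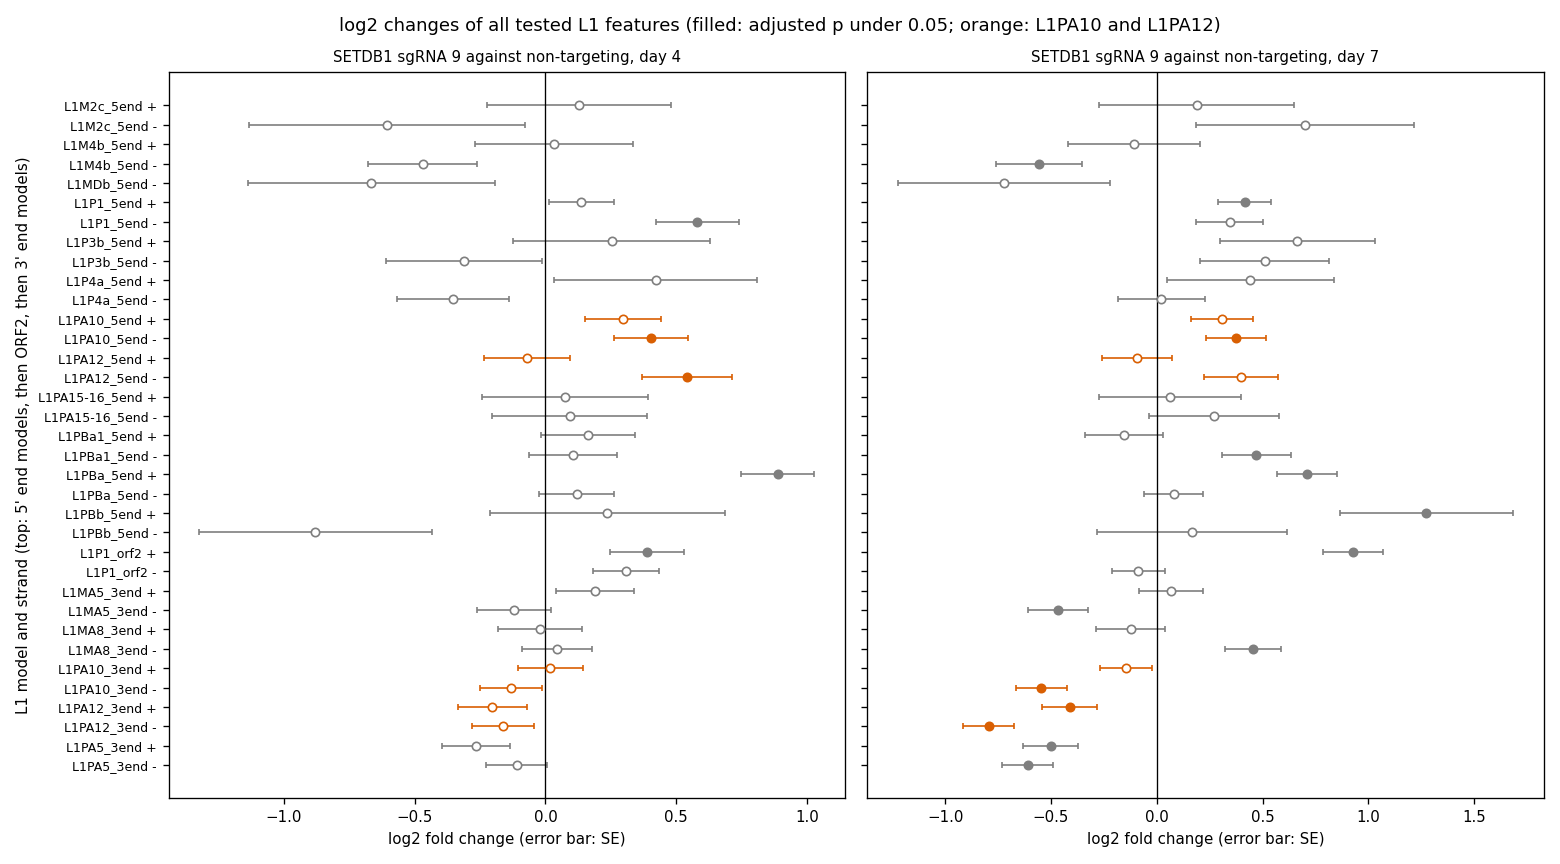
log2 fold change of SETDB1 sgRNA 9 against non-targeting cells at day 4 and day 7 for every tested L1 feature (x axis, with SE; 5′ end models at the top, then ORF2, then 3′ end models). Orange points are L1PA10 and L1PA12, grey points other L1 models, and filled points have an adjusted p under 0.05; at day 7 the orange 3′ end values lie between -0.80 and -0.15 and the orange 5′ end values between -0.09 and 0.40, and the falls rest on scaling to the table.

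On the minus strand, the same end of the 2 subfamilies varied together across the 12 libraries, and the 2 ends of 1 subfamily did not. As Pearson correlations of log2 CPM, the minus strands of L1PA10_3end and L1PA12_3end reached 0.965 and those of L1PA10_5end and L1PA12_5end 0.809, while the 5′ and 3′ end gave -0.57 within L1PA10 and -0.62 within L1PA12. This order did not hold on the plus strand, where the ends of L1PA12 gave 0.576, the ends of L1PA10 0.059, the 3′ ends of both subfamilies 0.517 and their 5′ ends 0.092. Outside the 8 features, both 3′ ends on the minus strand were most like L1PA5_3end minus strand (0.962 and 0.961), followed by MSTB1 minus strand (0.915 and 0.891), an LTR of the MaLR family. Both 5′ ends on the minus strand were most like L1P1_5end minus strand (0.906 and 0.891), followed by LTR60 plus strand for L1PA10 (0.842) and L1PBa_5end plus strand for L1PA12 (0.752).

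On the plus strand the closest features were L1P1_orf2 plus strand (0.822) and L1P1_5end plus strand (0.723) for L1PA10_5end, and L1PA5_3end plus strand (0.930) and LTR23-int minus strand (0.834) for L1PA12_3end. L1PA10_3end came closest to L1M4b_5end minus strand (0.621) and LTR23-int minus strand (0.570), and L1PA12_5end to L1PA15-16_5end plus strand (0.697) and L1M4b_5end minus strand (0.640). These are descriptions over 12 libraries that share the group differences, the scaling and, between L1 models, possibly reads.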

How the data were processed

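The deposited files hold raw whole-number counts of reads on each repeat model, by strand, with 1 table a day. The submitters' processing notes name CASAVA 1.8, BWA and HTSeq but give them no role. Genome build, repeat models, treatment of multi-mapping reads and what plus and minus refer to: not given in the sources used here. Each of the 24 columns was assigned by its header description.

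Features were fitted with edgeR 4.0.16 (R 4.3.3) after filterByExpr (minimum count 10, minimum total 15), which left 70 of 90 features, while the rest held 0.121% of counts. A single quasi-likelihood fit took all 12 libraries in 4 groups with TMM scaling of table totals (8 residual degrees of freedom, a BCV of 11.4%), Benjamini-Hochberg adjustment and a threshold of 0.05. SEs came from the F statistic. End ratios (pseudocount 0.5) were tested by exact permutation of arms within days or days within arms (400 arrangements, smallest two-sided p = 0.005), adjusted over 4 pairs. Ends, or strands, of a library as paired columns with a library block in edgeR gave the interaction and strand tests. Scripts were tested on simulated data. Alternatives included other scalings, filters and pseudocounts, a replicate block, single omitted libraries, DESeq2 1.42.0 and limma 3.58.1. In all 12 pairs of libraries within groups counting noise was exceeded (chi-square statistic 1.75 to 15.4 times its degrees of freedom). All 8 features were named, with up to 2 calls of other L1 features per direction and day, and the 2 best correlated non-members per feature (log2 CPM, prior count 2). The members, lists and tests were chosen with earlier results of these data known.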

Additional observations from a re-analysis of the deposited data

Results flagged for a closer look

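The response of L1PA12_3end minus strand to SETDB1 sgRNA 9 differed between the days in the interaction test, with a log2 difference of -0.63 ± 0.17 (day 7 minus day 4, SE; edgeR adjusted p = 0.0125). At day 7 all 3 SETDB1 libraries lay below the controls, and at day 4 the arms overlapped. The larger part of the difference was in the controls, where the feature was higher at day 7 by 0.40 ± 0.12. In the SETDB1 cells it changed by -0.23 ± 0.12, which did not pass (edgeR adjusted p = 0.183). Over 12 single omissions, the call of the rise in the controls was lost in 9 and that of the difference between days in 4. Without scaling the difference was -0.64 and did not pass (edgeR adjusted p = 0.616), and with DESeq2 it was -0.74 (adjusted p = 6.3e-06).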

How the results depend on the processing

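The falls of the end ratio over both days held for L1PA10 on both strands and L1PA12 on the minus strand under every alternative and omission run. That of L1PA12 on the plus strand missed the threshold with a pseudocount of 2 (-0.22, exact permutation adjusted p = 0.055) and ranged from -0.27 to -0.16 over single omissions. The alternative with both strands summed gave a single change per subfamily (-0.61 for L1PA10, -0.67 for L1PA12), so it does not test either strand on its own. In that setting the difference between days was 0.051 for L1PA10 and 0.15 for L1PA12, neither past the threshold. These had the opposite sign to the values of L1PA10 minus strand and L1PA12 plus strand. With limma the day 7 changes in strand log2 odds of L1PA10_3end (-0.40) and L1PA12_3end (-0.38) had adjusted p of 0.081 and 0.0683. Those over both days of L1PA10_3end (-0.27) and L1PA12_5end (0.55) had limma adjusted p of 0.0814 and 0.0818. The comparisons over both days of the strand shares, and by day of the end ratios in edgeR, were chosen after seeing the data.

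Single features depended on the scaling. The median log2 change of all features moved from its main value by 0.62 at day 4 and 0.598 at day 7 without scaling, by -0.14 and -0.24 with the members left out of totals and factors, by -0.10 at day 4 with table totals, by -0.14 at day 7 without a filter and by -0.22 at day 7 with the libraries of the contrast alone. Without scaling, 5 of the members were higher at day 4 and 3 at day 7, 0 were lower at day 7, and 0 passed in the interaction and in the non-targeting cells over time. The values that turned above 0 were, at day 4, 0.48 (L1PA10_3end minus), 0.45 (L1PA12_3end minus), 0.41 (L1PA12_3end plus) and 0.55 (L1PA12_5end plus), and at day 7, 0.058, 0.47 (L1PA10_3end minus and plus), 0.21 (L1PA12_3end plus) and 0.51 (L1PA12_5end plus). The number higher at day 4, 2 in the report, was 0 with table totals, with members left out and with the libraries of the contrast alone, and 1 without a filter. The number higher at day 7, 1 in the report, was 3 with table totals and 0 with RLE factors, DESeq2, members left out, no filter or the libraries of the contrast alone. The number lower in the interaction was 2 with RLE factors, DESeq2, no filter or L1P1_orf2 left out, where L1PA10_3end minus strand also passed. The rise in the non-targeting cells was lost (0 features) with table totals, members left out or the libraries of the contrast alone, and over time in the SETDB1 cells 1 feature was lower with RLE factors and 3 with DESeq2. The counts over all tested features moved with the setting too. Over the alternatives, 7 to 35 features were higher at day 4, and 11 to 37 were higher and 1 to 20 lower at day 7. In the interaction 1 to 8 were lower. Over time, 0 to 5 were higher in the non-targeting and 1 to 8 lower in the SETDB1 cells. The cause of these changes was not tested.

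Uncalled values near 0 changed sign. L1PA10_3end plus strand at day 4 was -0.087 with table totals, -0.13 with members left out, -0.030 without a filter and -0.019 with the libraries of the contrast alone. The interaction of L1PA10_5end plus strand was -0.101 with RLE factors and with DESeq2, -0.040 without L1P1_orf2, -0.087 with members left out and -0.12 without a filter. With table totals the interactions of L1PA10_5end minus (0.18), L1PA10_3end plus (0.023), L1PA12_5end plus (0.16) and L1PA12_5end minus strand (0.053) turned above 0.

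Over single omissions, the number higher ranged from 0 to 2 at day 4 and at day 7, the number lower in the interaction from 0 to 1, the number higher over time in the non-targeting cells from 0 to 1 and the number lower in the SETDB1 cells from 0 to 5. L1PA10_3end plus strand ranged from -0.052 to 0.063 and L1PA12_5end plus strand from -0.18 to 0.0033 at day 4. The interactions ranged from -0.12 to 0.14 (L1PA10_5end plus), -0.26 to 0.10 (L1PA10_5end minus), -0.12 to 0.11 (L1PA12_5end plus) and -0.43 to 0.070 (L1PA12_5end minus). The difference between days of the end ratio ranged from 0.23 to 0.33 for L1PA10 plus strand and from -0.12 to 0.016 for its minus strand. The difference between strands ranged from 0.29 to 0.46 (L1PA10) and 0.598 to 0.87 (L1PA12), and that between subfamilies on the minus strand from -0.34 to -0.14. The changes in strand log2 odds ranged at day 4 from -0.10 to 0.37 (L1PA10_5end), 0.37 to 0.88 (L1PA12_5end) and -0.040 to 0.13 (L1PA12_3end). At day 7 they ranged from -0.050 to 0.16 (L1PA10_5end), -0.46 to -0.28 (L1PA10_3end), 0.37 to 0.73 (L1PA12_5end) and -0.43 to -0.34 (L1PA12_3end). Over both days they ranged from -0.015 to 0.22 (L1PA10_5end), -0.33 to -0.22 (L1PA10_3end) and 0.44 to 0.69 (L1PA12_5end). The edgeR day 4 change in the end ratio of L1PA12 plus strand ranged from -0.22 to 0.010.

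Nothing says that equal replicate numbers pair libraries, and the correlations of same-numbered deviations ran from -0.135 to 0.127 at day 4, -0.075 to 0.279 at day 7, 0.0071 to 0.162 over time in the non-targeting and -0.311 to -0.201 in the SETDB1 cells. With the replicate number as a block, 2 features were higher at day 7 and 0 rose over time in the non-targeting cells. In that setting the change in the L1PA12 plus strand end ratio (-0.23) had an exact permutation adjusted p of 0.188. The low counts of L1PA12_5end, 58 to 268 per library and strand, limit the precision of its values.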
